A study of Mus musculus with 27 samples.

Results

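A set of 10 regulators of epithelial gene expression and splicing was followed across prostate tumours of F2 mice: the grainyhead factors Grhl1, Grhl2 and Grhl3, the OVOL zinc-finger factors Ovol1 and Ovol2, the ETS factors Elf3 and Ehf, the Krüppel-like factor Klf5, and the RNA-binding splicing factors Esrp1 and Esrp2. The list is one of gene names, with no threshold on their levels, and each was read from the array row whose only platform gene symbol was the gene. All 10 had exactly such a row, out of 22180 named genes. There were 27 tumours in 1 group, each from a different male, and every male carried the TRAMP transgene on a mixed background of C57BL/6-Tg(TRAMP)8247Ng/J and PWK/PhJ. Sires without the transgene had been mated to dams that carried it, and the end of follow-up was 30 weeks, or sooner if a humane limit required it. TRAMP drives SV40 early-region proteins from the probasin promoter, which is active in prostate epithelium. No tumour-free prostate and no parental strain was analysed here, so the comparisons are among tumours, which carry the animal's number as their name.

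As background, grainyhead factors activate genes of cell junctions and of the epithelial barrier. OVOL factors hold epithelial identity largely by repressing genes such as Zeb1, and ZEB1 in turn represses epithelial genes through E-box sequences. ELF3 and EHF are ETS factors largely restricted to epithelia, and KLF5 acts in proliferating and basal epithelia, the prostate's among them. ESRP1 and ESRP2 select the epithelial exons of transcripts such as those of Fgfr2, Cd44, Ctnnd1 and Enah. Values here are log2 expression levels of whole genes, so they show how much of each regulator's RNA was there and not which exons were used.

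Promoter sequence was available for 4 of the 10 genes (RefSeq, GRCm38.p6). Those of 3 genes are printed because their genes had different patterns over the tumours: Elf3 was high in 8 tumours, Grhl3 in 3 and Ovol2 in 7 over a narrow range. Each line holds the 250 bases before the annotated start, 5′ to 3′ on the gene's strand, and capitals mark CACCTG, the E-box bound by ZEB1. They lie at chr1:135258473-135258722, chr4:135573633-135573882 and chr2:144331363-144331612, all on the minus strand.
Elf3: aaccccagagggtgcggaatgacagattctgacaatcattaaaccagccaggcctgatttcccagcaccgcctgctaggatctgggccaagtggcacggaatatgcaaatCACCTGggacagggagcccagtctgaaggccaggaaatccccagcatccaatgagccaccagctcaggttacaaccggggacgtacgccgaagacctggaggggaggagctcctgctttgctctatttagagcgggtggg
Grhl3: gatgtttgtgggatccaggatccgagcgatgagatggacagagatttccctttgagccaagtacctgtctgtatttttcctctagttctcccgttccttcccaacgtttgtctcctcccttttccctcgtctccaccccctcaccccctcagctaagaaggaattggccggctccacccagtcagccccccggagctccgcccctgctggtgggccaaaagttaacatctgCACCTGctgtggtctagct
Ovol2: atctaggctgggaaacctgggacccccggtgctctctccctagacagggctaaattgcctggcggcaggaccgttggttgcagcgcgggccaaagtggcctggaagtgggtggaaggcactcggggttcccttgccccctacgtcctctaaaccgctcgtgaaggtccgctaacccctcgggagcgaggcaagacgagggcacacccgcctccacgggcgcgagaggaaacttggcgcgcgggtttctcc
CACCTG was found 140 bases before the start of Elf3 and 19 bases before that of Grhl3. It was absent from the windows of Ovol2 and Grhl1. Counting both strands, 17.2% of 32851 promoter windows held it. The grainyhead sequence AACCNGTT, held by 1.79% of windows, and the ETS core CCGGAA, held by 12%, were in none of the 4 genes' windows. These are matches of letters only.

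Across the arrays, medians lay between 5.67 and 5.82 and correlations between pairs of arrays between 0.891 and 0.986. Of the prostate markers, Hoxb13, a homeobox gene of the prostate, had a median of 8.68. It was lowest in P471 (4.47), P966 (4.98), P1276 (5.44) and P569 (5.61), so that marker was near background in those tumours. P803 was next at 6.35. All of these tumours belong to the 8 with high Elf3. The pioneer factor gene Foxa1 ranged from 7.20 in P471 to 11.72 in P425. Sox9, also on the prostate list, went the other way from Hoxb13 in P471, P966 and P1276. It was highest in P471 (9.93), P219 (9.90), P966 (9.68), P425 (9.62) and P1276 (9.43), with a median of 6.89, and lowest in P803 (5.90). Hoxd13 had a median of 4.90 and was highest in P500 (7.01) and P219 (6.83). In whole tumours, fewer epithelial cells and less of a regulator's RNA per epithelial cell cannot be told apart.

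The regulators varied far more between tumours than most genes did. Their median SD was 1.19 log2, against 0.30 for all genes. Of the 10, 6 had an SD of at least 1 log2, as did 5.04% of all genes. A range over more than 16-fold was seen for 5 of the 10 and for 4.62% of all genes. Levels below 5.79, the median level of all rows, are close to background, so a range that starts there is a lower bound.

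**Figure D1:**
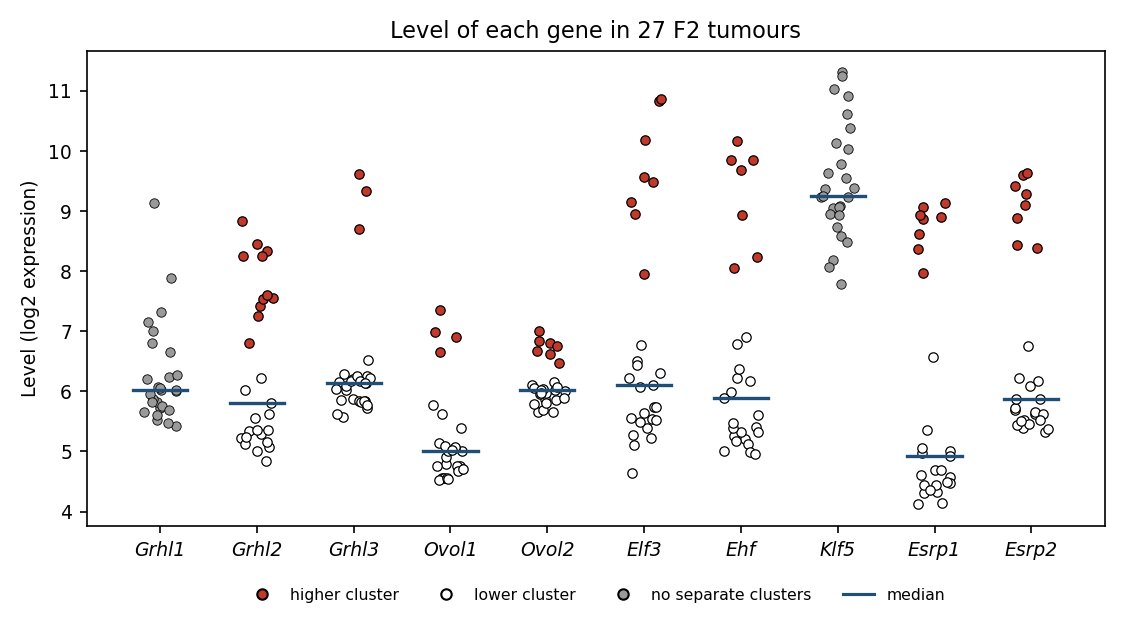
Log2 level (vertical axis) of each of the 10 genes (horizontal axis) in the 27 tumours; each point is 1 tumour and the line is the median. Filled red points are the tumours of the higher cluster and open points those of the lower cluster, grey points belong to genes without separate clusters (Grhl1 and Klf5).

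Levels of 8 of the 10 genes fell into separate clusters of tumours, by a Gaussian mixture with 2 components against 1. The rule asked for a difference in BIC, which scores fit against complexity, of over 6, for Ashman's D, the distance between the components in units of their width, of over 2, and for at least 3 tumours in the smaller cluster. It called 7.9% of all 22180 genes. Grhl1 and Klf5 were the exceptions. The clusters come from the same values that they describe, so they were not compared with each other.

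Among the grainyhead genes, Grhl2, which activates Cdh1 and Cldn4 in epithelial cells, had the largest higher cluster. It ranged from 4.84 in P609 to 8.83 in P425, at least 15.9-fold, with a median of 5.81. Its higher cluster held 11 tumours at 6.80 or above, and the other 16 were at 6.22 or below. The higher cluster of Grhl2 took in 3 tumours from the lower clusters of both splicing factors: P500 at 7.42, P268 at 7.26 and P502 at 6.80.

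Grhl3, a factor of the skin barrier and of wound repair, was high in 3 tumours. It reached 9.61 in P966, 9.33 in P1276 and 8.70 in P471, and lay between 5.58 and 6.52 in the other 24, around a median of 6.14 over all 27. That is a range of at least 16.3-fold. The clusters were called only while all 3 high tumours were included, because leaving out any of them left too few.

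Grhl1, known for its control of desmosomal genes in skin, had a different pattern. It ranged from 5.43 in P902 to 9.14 in P425, at least 13.1-fold, with a median of 6.02. P219 followed at 7.88 and P966 at 7.32. Only P425 and P219 stood above the rest, which is under the 3 tumours needed for a cluster.

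Ovol1 and Ovol2 encode zinc-finger repressors. Ovol1 was lowest in P268 (4.52), had a median of 5.01 and was highest in P966 (7.36), a range of at least 7.15-fold. Its higher cluster was P966, P1469 (6.99), P569 (6.91) and P1276 (6.66), with all others at 5.78 or below. P471, where Grhl3 was high, had an Ovol1 level of 5.63. Ovol2 was the least variable of the 10, from 5.65 in P1225 to 7.0 in P1469, at least 2.56-fold, with a median of 6.02 and an SD of 0.39 that 34.6% of all genes reached. Even so, 7 tumours at 6.47 or above stood apart from 20 at 6.16 or below.

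The ETS factor gene Elf3 had the widest range of the 10. It was lowest in P474 (4.64), had a median of 6.11 and reached 10.87 in P966 and 10.84 in P1276, at least 75.2-fold. Its higher cluster held 8 tumours at 7.96 or above, and the remaining 19 were at 6.78 or below. Ehf, the related ETS factor, ranged from 4.96 in P619 to 10.17 in P425, at least 36.9-fold, with a median of 5.89. Its 7 high tumours, at 8.06 or above, were not the same set as for Elf3. They included P502 (8.23) but neither P1469 (6.79) nor P569 (6.37), although those tumours had Elf3 levels of 9.56 and 9.15. P502 had Elf3 at 6.78, the highest level of the lower Elf3 cluster. Elf3 and Ehf thus differed in cluster in P1469, P569 and P502. In each of these tumours the gene in its lower cluster was still above its median.

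Klf5 averaged 9.48 ± 0.96 log2 (SD, n = 27) and never approached background. It ranged 11.5-fold, from 7.78 in P474 to 11.31 in P1276, with a median of 9.25 and no gap between tumours. P966 (11.25), P425 (11.03), P471 (10.92), P1469 (10.61) and P500 (10.38) came next. P500 had Elf3 at 6.30 and Esrp1 at 4.45, so high Klf5 was also seen where those genes were low.

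The splicing factor genes Esrp1 and Esrp2 were the most sharply divided after Grhl3, with Ashman's D of 8.06 and 8.69, against 12.63 for Grhl3. Esrp1 was between 4.12 (P1218) and 6.57 (P502) in 19 tumours and between 7.97 (P219) and 9.13 (P569) in 8, with a median of 4.93 and a range of at least 32.2-fold. Esrp2 was between 5.33 (P509) and 6.75 (P502) in the same 19 and between 8.38 (P219) and 9.63 (P425) in the same 8, with a median of 5.88 and a range of at least 19.7-fold. P502 was the highest of the 19 for both genes. A second row that names Esrp2 together with 1810019D21Rik was not used. It was likewise highest in P425 (7.67), P569 (7.08) and P471 (6.96).

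The same 8 tumours formed the higher cluster of Elf3, Esrp1 and Esrp2: P966, P1276, P471, P425, P219, P803, P1469 and P569. Of the 8 genes with clusters, P966 and P1276 were in the higher cluster of 8, P471 of 7, P425, P1469, P569 and P803 of 6, and P219 of 5. P502 was in the higher cluster of 2 genes (Ehf and Grhl2), P268 and P500 of Grhl2 alone, and 16 tumours of none. Within the 8 tumours the mixture of regulators differed. P966 and P1276 had all of them, and P425 and P219 had high Grhl1 and Ehf with Grhl3 at 6.29 and 6.03. P1469 and P569 had high Ovol1, with Ehf at 6.79 and 6.37, in its lower cluster but above its median of 5.89.

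**Figure D2:**
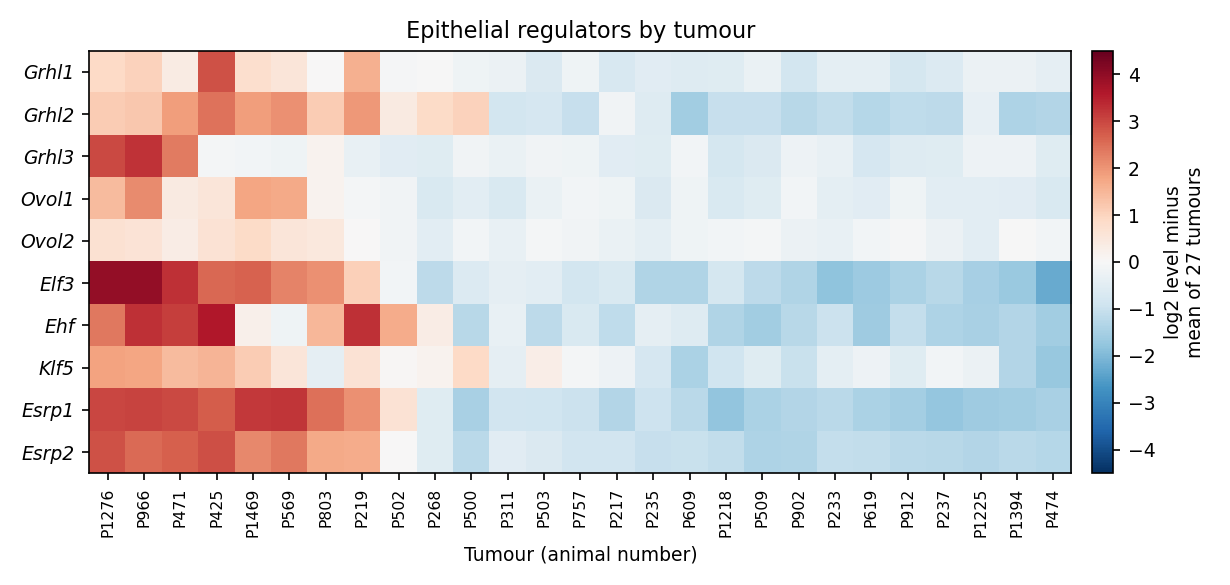
Log2 level of each gene (rows) in each tumour (columns, by animal number) after subtracting the mean of its row; red is above and blue below the mean. Tumours are ordered by how many of the 8 clustered genes were in their higher cluster and then by the mean of Esrp1, Esrp2 and Elf3, and the 8 leftmost are those with high Elf3, Esrp1 and Esrp2.

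Markers of other cells moved with some of these tumours. The smooth muscle score, the mean centred log2 level of 8 measured genes, was 2.24 in P219 and 2.04 in P425. The fibroblast and matrix score was 1.59 in P471 and 1.23 in P966, and -1.20 in P803. The macrophage and myeloid score was 1.29 in P471 and 0.88 in P966. The neuroendocrine score stood at -1.75 in P1276, -2.10 in P425, -2.37 in P966 and -3.16 in P471, and between -0.07 and 0.72 in the other 23 tumours. The other 4 of the 8 tumours with high Esrp1 were thus among those 23, P219 at -0.07 and P803 at 0.70. The part of these other cells in the levels above was not tested.

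To see which regulators moved together within a cluster rather than between clusters, all genes were fitted with limma on the level of each regulator in turn, inside its larger cluster where it had clusters. Slopes are log2 units per log2 unit of the regulator, and p was adjusted by Benjamini-Hochberg over all genes. Within the 19 tumours of low or intermediate Esrp1, Ehf rose with Esrp1 by 1.35 ± 0.12 (SE, limma adjusted p = 1.8e-06) and Esrp2 by 0.59 ± 0.08 (limma adjusted p = 0.00013). In this fit 1.1% of all genes rose. With Esrp2 as the measure over the same 19 tumours, in which 0.528% of genes rose, Ehf rose by 1.91 ± 0.25 (limma adjusted p = 0.0012) and Esrp1 by 1.37 ± 0.16 (limma adjusted p = 4e-04). The other 7 regulators passed in neither of these fits. In these 19 tumours Esrp1 lay between 4.12 (P1218) and 5.36 (P268) in all but P502 (6.57). Those levels are below 5.79 and so close to background, as were most of the Esrp2 levels. The slopes along Esrp1 and Esrp2 thus rest largely on low values, and without P502 every Esrp1 level fitted was below 5.79.

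Tumour P502 carried part of these relations. Without it, in a fit added after the data were seen, Ehf still rose with Esrp1 (slope 1.29, limma adjusted p = 0.031). The slope of Esrp2 along Esrp1 was 0.65 (limma adjusted p = 0.067), that of Ehf along Esrp2 was 1.40 (limma adjusted p = 0.37) and that of Esrp1 along Esrp2 was 0.98 (limma adjusted p = 0.28). Along Ehf itself, in its 20 lower tumours, Esrp1 had a slope of 1.63 ± 0.38 (limma adjusted p = 0.047; 0.55% of genes rose). This call was lost on leaving out any 1 of 15 tumours, P1469 and P569 among them, and with quantile normalization, median centring or composition scores as covariates. Those 20 include P1469 and P569, the tumours with high Esrp1 and with Ehf in its lower cluster. In those of the 20 that were also in the lower Esrp1 cluster, so without P1469 and P569, the slope was 0.53 (limma adjusted p = 0.016). P502, in the higher Ehf cluster, was in neither of these fits along Ehf.

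**Figure D3:**
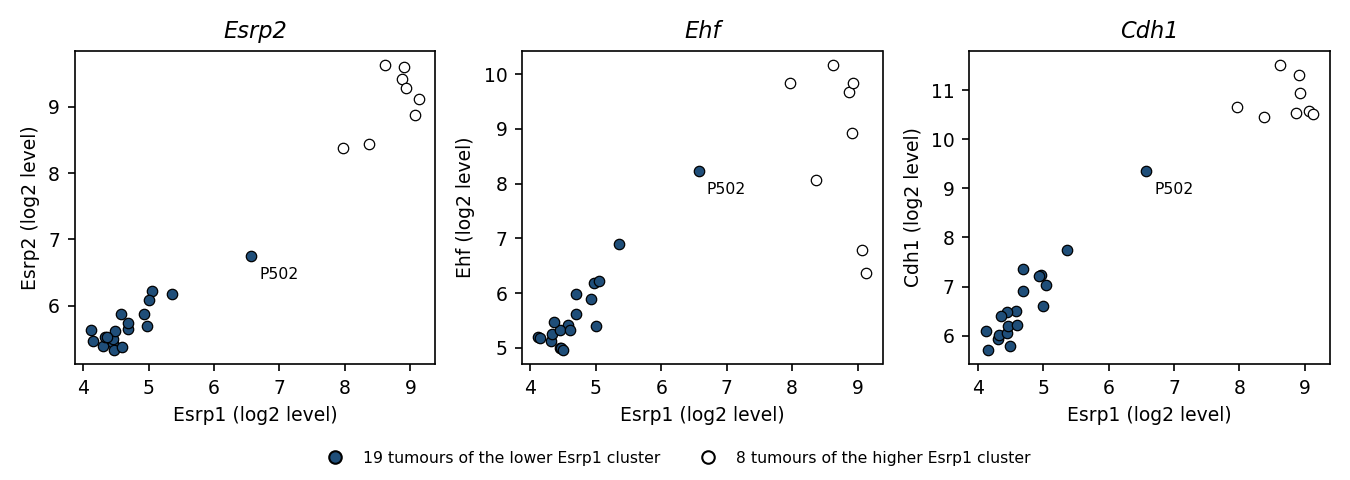
Levels of Esrp2, Ehf and Cdh1 (vertical axes, log2) against the level of Esrp1 (horizontal axes, log2), each point 1 of 27 tumours. Filled points are the 19 tumours of the lower Esrp1 cluster, in which Cdh1, Ehf and Esrp2 rose with Esrp1, and P502 at 6.57 is the highest of them; open points are the 8 tumours of the higher cluster, of which 2 had Ehf below 7.

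Epithelial target genes followed the same gradient inside the 19 tumours. Of 18 epithelial genes known as targets of grainyhead or OVOL factors, 13 rose with Esrp1 and none fell, and the median slope of the 18 was 0.65, against 0.00 over all genes. Cdh1, the gene of E-cadherin, rose by 1.46 ± 0.13 (limma adjusted p = 1.8e-06). The tight-junction gene Cldn4 rose by 1.02 ± 0.13, the trafficking gene Rab25 by 0.92 ± 0.15 and the desmosome gene Dsp by 0.89 ± 0.12 (limma adjusted p of 0.00013, 0.00087 and 0.00014). Tmem30b had the steepest slope, 1.53 ± 0.46, and did not pass (limma adjusted p = 0.16). Of 12 luminal epithelium markers 7 rose, among them Krt19 by 1.10 ± 0.07 (limma adjusted p = 1.7e-08). Cdh1, Epcam, Cldn3, Cldn4, Cldn7 and Dsp are in both the target and the luminal list, so the counts of these lists overlap here and below. None of the 8 basal markers passed (1 at an unadjusted p under 0.05). Of 12 androgen-responsive and secretory genes 3 rose: Msmb by 2.85 ± 0.50, Tmprss2 by 1.02 ± 0.14 and Azgp1 by 0.74 ± 0.11 (limma adjusted p of 0.0024, 0.00019 and 0.00045).

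Markers of other cells had slopes above 0 in the same fit. The fibroblast and matrix list had a median slope of 0.70 along Esrp1 (0 of 9 passed, 6 at an unadjusted p under 0.05) and 0.87 along Esrp2 (0 of 9 passed, 5 unadjusted). Along Esrp1 the smooth muscle, macrophage and T and NK cell lists had medians of 0.37, 0.29 and 0.26, with 3 of 8, 3 of 10 and 6 of 8 at an unadjusted p under 0.05 and none passing. Their part in the relation was not tested.

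The count of epithelial genes rested in good part on P502. Without that tumour 2 of the 18 target genes and 3 of the 12 luminal markers rose with Esrp1, beside 0.0676% of all genes in either direction. In that fit 1 of 8 smooth muscle genes rose too. An unadjusted p under 0.05 was held by 7 of 8 smooth muscle, 7 of 10 macrophage and 5 of 9 fibroblast genes, and by 1735 of all 22179 genes tested. With Esrp2 as the measure, 11 of the 18 and 6 of the 12 rose over the 19 tumours, with Cdh1 at 2.02 ± 0.29 (limma adjusted p = 0.0017) and Tmem30b at 2.91 ± 0.59 (limma adjusted p = 0.024). None of them passed in limma without P502, when 0 genes in all passed and 1392 had an unadjusted p under 0.05, 14 of the 18 and 6 of the 12 among them. Along Ehf, in its lower 20 tumours, to which P502 does not belong, 6 of the 18 rose, led by Tmem30b (2.45 ± 0.47), Cdh1 (1.86 ± 0.29), Dsp (1.79 ± 0.40) and Rab25 (1.73 ± 0.38; limma adjusted p of 0.018, 0.0068, 0.042 and 0.041). The neuronal gene Stmn2 fell with Ehf by 1.65 ± 0.35 (limma adjusted p = 0.031), 1 of the 0.0812% of genes that fell; it was the only call among 16 neuroendocrine genes, whose median slope was -0.03.

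Further lists of regulators and of ESRP-controlled genes held no call in these fits. Of 7 measured repressors of epithelial genes, 16 other splicing regulators and 10 genes with exons that ESRP proteins control, none passed along Esrp1, Esrp2 or Ehf within the clusters (limma). At an unadjusted p under 0.05 there were 0, 0 and 2 of the repressors along Esrp1, Esrp2 and Ehf, 3, 2 and 3 of the splicing regulators, and 1, 0 and 2 of the ESRP-controlled genes. Along Ehf 3099 of all 22179 genes tested were under it. Without P502, 1735 were along Esrp1 and 1392 along Esrp2. Zeb1, whose protein represses Cdh1, had a slope of -0.07 ± 0.18 along Esrp1 (limma adjusted p = 0.97). Rbm47, an RNA-binding protein of epithelia, had a slope of 0.50 ± 0.12 and lay just outside the threshold (limma adjusted p = 0.051). Fgfr2, whose exon choice is the classical readout of ESRP activity, had a slope of 0.13 ± 0.32 in its total level (limma adjusted p = 0.97).

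Grhl1 and Klf5 had no clusters, so their fits used all 27 tumours and mix the clusters of the others. Along Grhl1, 8 of the 9 other regulators rose, from 0.33 ± 0.07 for Ovol2 to 1.81 ± 0.27 for Esrp1 (limma adjusted p of 0.00055 and 1.6e-05), where 13.6% of all genes rose. Grhl3 did not pass. Along Klf5, all 9 rose, most steeply Elf3 by 1.69 ± 0.21 (limma adjusted p = 9.8e-06), where 11% of genes rose. Along Ovol1, over the 23 tumours of its lower cluster, all 9 rose as well, among them Ehf by 3.65 ± 0.66 and Elf3 by 3.51 ± 0.49 (limma adjusted p of 0.00062 and 8.5e-05), where 10.2% of genes rose. With composition scores as covariates, 3 of the 9 along Ovol1 no longer passed. The 23 tumours still hold 4 of the 8 with high Esrp1. Their Ovol1 levels, 4.52 to 5.78, all lay below 5.79, so the slopes along Ovol1 rest on values near background.

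Restricted to the 19 tumours of lower Esrp1, in fits added after the data were seen, no regulator passed along Grhl1, Klf5 or Ovol1. Slopes of Ovol1 and Ovol2 along Grhl1 were then -0.31 and -0.09. Of 90 ordered pairs of regulators 31 passed in the fits as designed, all rising. With every fit held to tumours of the lower Esrp1 cluster 5 passed, all among Ehf, Esrp1 and Esrp2. The fits along Esrp1 and Esrp2 were already made in those 19 tumours, so the restriction could not change their calls. The fit along Ehf lost P1469 and P569 by it and did not hold P502. Along Grhl2, Grhl3, Ovol2 and Elf3, within their larger clusters, no regulator passed in limma, and at an unadjusted p under 0.05 there were 2, 6, 0 and 5. Those fits called 0.0% of genes along Grhl2, Grhl3 and Elf3 and 0.00451% along Ovol2.

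Family members outside the 10 differed in whether they shared these patterns. Tfcp2l1, a CP2-family relative of the grainyhead genes, rose with Grhl1 by 1.02 ± 0.13 over 27 tumours (limma adjusted p = 2.4e-06), and was highest in P425 (10.31) and P219 (8.83), as Grhl1 was. Its relatives Tfcp2 and Ubp1 had slopes of -0.03 ± 0.07 and 0.04 ± 0.05 and did not pass. Among 11 other ETS genes 3 rose and 2 fell along Grhl1, where 13.8% of all genes fell. Ets2 rose by 0.88 ± 0.22 and Etv1, a neural and stromal ETS gene, fell by 0.98 ± 0.23 (limma adjusted p of 0.0031 and 0.0016). Among 8 Krüppel-like factors 4 rose and 1 fell along Klf5, where 10.4% of all genes fell. Klf3 rose by 0.64 ± 0.08 and Klf6 by 0.55 ± 0.07 (limma adjusted p of 1.4e-05 and 1.6e-05), and Klf7 fell by 0.27 ± 0.07 (limma adjusted p = 0.0093).

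Neuronal splicing regulators were low in the tumours that also had low neuroendocrine scores. Nova1 was at 5.82 in P471, 6.67 in P425, 7.13 in P966 and 7.44 in P1276, with a median of 9.56. Elavl3 was at 5.30, 7.32, 6.85 and 7.27 in the same order, with a median of 9.90, and Rbfox1 at 6.47, 7.48, 6.98 and 7.72, with a median of 9.95. In P803, P1469, P569 and P219, where Esrp1 was at 8.37, 9.07, 9.13 and 7.97, Rbfox1 was at 10.20, 10.51, 9.93 and 9.48 and Elavl3 at 9.13, 9.88, 9.46 and 9.52. High Esrp1 was thus measured together with Rbfox1 and Elavl3 near their medians in these 4 of the 8 tumours. In P425, P966 and P1276, Rbfox1, Elavl3 and Nova1 were lower but still above 5.79, the median level of all rows. That median is not a limit of detection, so a level above it does not by itself show expression. In P471 Elavl3 (5.30) was below that level and Nova1 (5.82) just above it. Nova1 was at 7.19, 8.17 and 7.62 in P803, P1469 and P569, and at 9.48 in P219. Rbm47 was highest in P219 (7.59) and P425 (6.86), against a median of 4.84.

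Zeb1 was lowest in P1469 (5.12), P1276 (5.50), P966 (5.83), P569 (5.98), P471 (6.23) and P425 (6.33), which are 6 of the 8 tumours with high Esrp1, and had a median of 7.5. It was at 7.35 in P219 and 7.19 in P803. Tcf4, which encodes an E-box factor, was lowest in P803 (9.33), P425 (9.42), P1469 (9.57) and P569 (9.92). Snai3 was highest in P1276 (6.45), P1469 (6.40), P803 (6.24), P966 (5.94) and P425 (5.89), all among the 8 tumours, at levels near background. Snai1 was highest in P966 (6.00) and P1276 (5.81), then in P757 (5.54), P471 (5.52) and P803 (5.36). Snai2 was highest in P474 (7.70) and Twist1 in P1394 (8.05).

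The miR-200 family is shown because its mature RNAs silence Zeb1 and their precursors were on the arrays, a list added after the files were seen. The lines give the mature 3p RNAs (RefSeq, GRCm38.p6), with the seed, bases 2 to 8, in capitals. The seed AAUACUG is shared by the first pair and AACACUG by the second.
mmu-miR-200b-3p: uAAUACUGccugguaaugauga
mmu-miR-200c-3p: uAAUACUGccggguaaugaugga
mmu-miR-200a-3p: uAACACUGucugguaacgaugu
mmu-miR-141-3p: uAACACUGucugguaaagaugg
The precursor Mir200b was highest in P425 (10.47), P966 (7.59) and P1469 (7.31), with a median of 6.05. Mir200c was highest in P425 (6.51) and P1276 (6.12), with a median of 3.44. Mir200a reached 7.89 and Mir141 4.59 in P425, and medians were 5.29 and 3.09. Along Grhl1 all 4 rose over 27 tumours, Mir200b by 0.96 ± 0.13 (limma adjusted p = 5.3e-06), and none passed along Esrp1, Esrp2 or Ehf within the clusters. Mir141 stayed below the background level of 5.79 in all 27 tumours and Mir200c exceeded it in 2, so their slopes rest on low values. These rows measure precursor RNA and not the mature molecules.

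**Figure D4:**
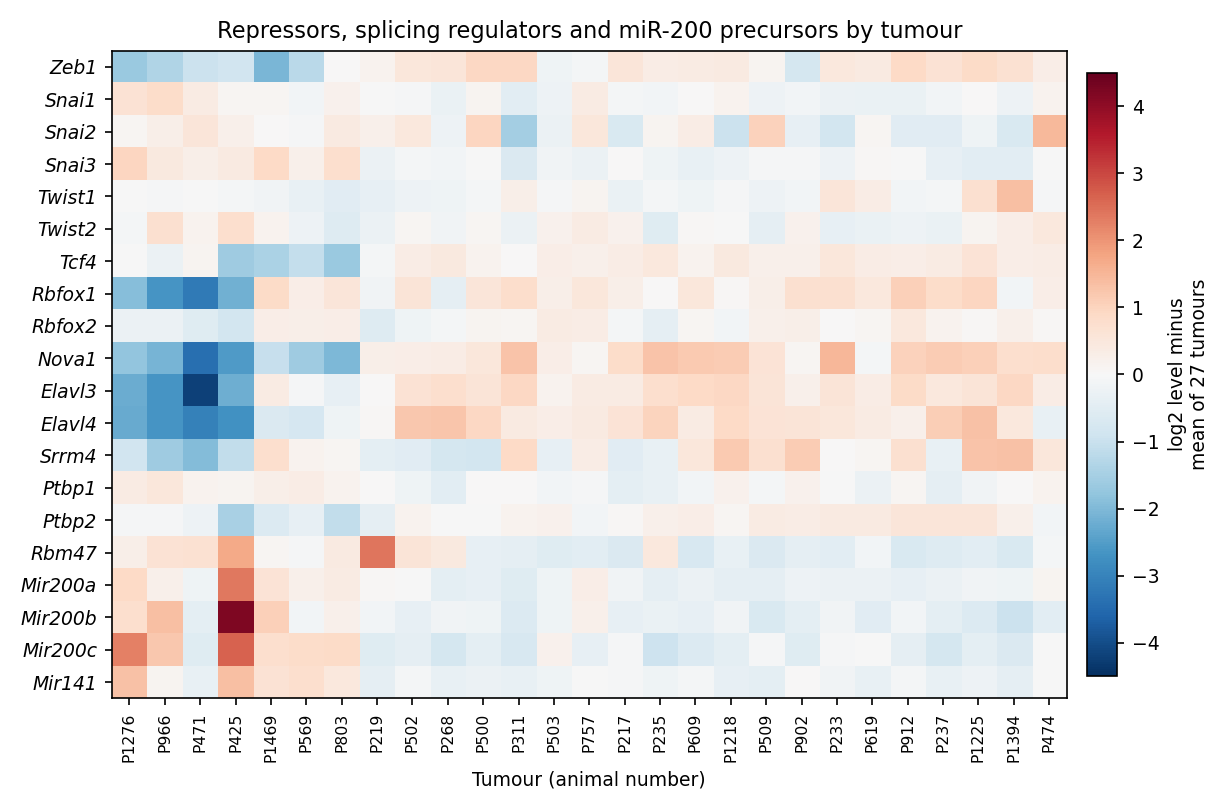
Log2 level of repressors of epithelial genes (Zeb1 to Tcf4), other splicing regulators (Rbfox1 to Rbm47) and miR-200 precursors (Mir200a to Mir141) minus each gene's mean over 27 tumours, in the tumour order used for the 10 regulators; red is above and blue below the mean. Zeb1 was low in 6 of the 8 leftmost tumours, and Rbfox1 and Elavl3 were low in 4 of them.

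Of the genes known for ESRP-controlled exons, total levels differed widely among tumours with high Esrp1. Cd44 was at 9.90 in P471, 9.71 in P966 and 9.41 in P1276, and at 5.20 in P803, 5.75 in P1469 and 5.79 in P569, although Esrp1 was above 8 in all 6. The other 2 tumours with high Esrp1, P425 and P219, had Cd44 at 8.28 and 8.22. Fgfr2 had the opposite order in those 6, at 5.66, 6.27 and 6.36 in the first set and at 8.57, 8.18 and 8.53 in the second. It was at 7.70 in P425 and 8.41 in P219, where Cd44 was high as well.

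Next, the regulators were set against scores of cell state, each scaled within the tumours fitted, so that a slope is log2 units per SD of the score there. Along the mitosis score 8 of the 10 fell and none rose, where 14.1% of all genes fell. Grhl1 fell by 0.67 ± 0.10 (limma adjusted p = 7.4e-06), Esrp2 by 1.05 ± 0.23 (limma adjusted p = 0.0013), Ovol2 by 0.26 ± 0.06 (limma adjusted p = 0.0019) and Ehf by 1.08 ± 0.26 (limma adjusted p = 0.0029). Elf3 fell by 1.10 ± 0.30, Grhl2 by 0.70 ± 0.21 and Ovol1 by 0.38 ± 0.14 (limma adjusted p of 0.0077, 0.016 and 0.038), and Esrp1 passed too. Klf5 had a slope of -0.42 ± 0.16 and Grhl3 of -0.23 ± 0.20 and did not pass. The mitosis score was -1.99 in P425, far below all others.

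Within the 19 tumours of lower Esrp1 no regulator passed along the mitosis score in limma (3 at an unadjusted p under 0.05), where 5.33% of genes did. Grhl2 had a slope of 0.42 ± 0.14 (limma adjusted p = 0.084), Grhl1 of 0.12 ± 0.05 (limma adjusted p = 0.17) and Esrp1 of 0.02 ± 0.12 (limma adjusted p = 0.95), all of the opposite sign to the 27 tumours. The slopes over 27 tumours are taken across both Esrp1 clusters, and why they differ from those in the 19 was not tested.

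Along the androgen-responsive and secretory score 5 of the 10 rose, where 9.15% of all genes rose. Ehf rose by 1.27 ± 0.23 (limma adjusted p = 0.00019), Grhl1 by 0.68 ± 0.09 (limma adjusted p = 5e-06), Grhl2 by 0.80 ± 0.20, Esrp2 by 0.89 ± 0.26 and Esrp1 by 0.99 ± 0.31 (limma adjusted p of 0.0053, 0.015 and 0.028). The score was 3.46 in P425 and 2.05 in P219, and without P425 2 regulators passed. In the 19 tumours of lower Esrp1, Ehf rose by 0.64 ± 0.11 (limma adjusted p = 0.0036) and Esrp1 by 0.45 ± 0.08 (limma adjusted p = 0.0037), where 0.943% of genes passed. Without P502 as well, no regulator passed.

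Along the fibroblast and matrix score 3 of the 10 rose, where 6.55% of genes rose: Ehf by 0.98 ± 0.27, Grhl3 by 0.61 ± 0.16 and Klf5 by 0.52 ± 0.15 (limma adjusted p of 0.021, 0.016 and 0.028). None passed without P966 or without P471, and 7 passed without P803. None passed in the 19 tumours of lower Esrp1 (limma; 4 at an unadjusted p under 0.05), where 0.406% of genes did. Along the neuroendocrine score, fitted in the 23 tumours of its larger cluster, none of the 10 passed, as for all genes but 0.00451%. Slopes ran from -0.34 ± 0.24 for Ehf to 0.10 ± 0.13 for Ovol1. Along the mesenchymal transition score none of the 10 passed and no gene did (0.0%), with slopes from -0.42 ± 0.36 for Esrp1 to 0.22 ± 0.20 for Grhl3. In both of these fits 0 of the 10 had an unadjusted p under 0.05.

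**Figure D5:**
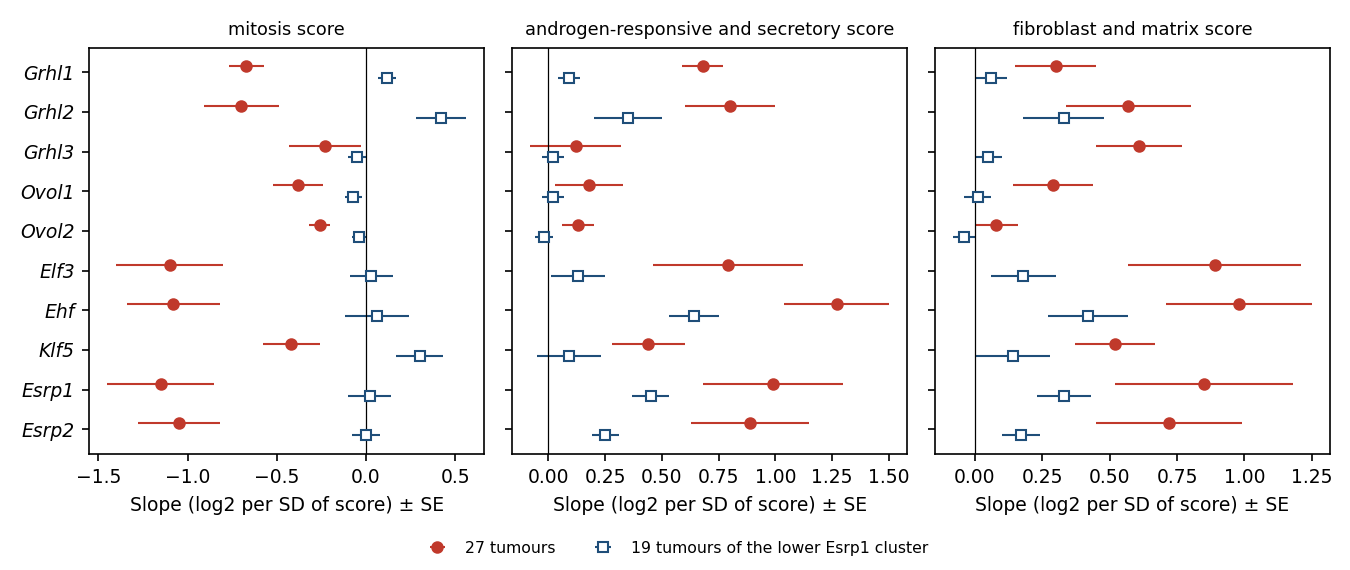
Slope of each gene (rows) along 3 scores (panels), in log2 units per SD of the score over the tumours fitted, with its SE. Filled circles are fits over 27 tumours and open squares fits over the 19 tumours of the lower Esrp1 cluster; along the mitosis score the circles of 8 genes that fell lie below 0 while the squares lie near or above 0.

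The genes whose levels were most like each regulator's are given as a description, by Spearman's rho over the 27 tumours, which share array and animal, with rho inside the regulator's larger cluster beside it. Ehf was most like Cdh1 (rho 0.956, and 0.929 in 20 tumours), followed by Tmc4 and Krt19. Esrp1 was most like Krt19 (rho 0.927, and 0.912 in 19), then Cdh1 and the junctional adhesion molecule gene F11r. Esrp2 was most like Elmo3 (rho 0.922, and 0.804 in 19), Spint1, an inhibitor of the protease matriptase, and Cdcp1. Elf3 was most like Tmem30b (rho 0.894, and 0.793 in 19), Prr15 and the keratin gene Krt8.

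Grhl2 was most like Llgl2, a cell polarity gene (rho 0.890, and 0.691 in 16), Casz1 and Ostf1. Grhl1 was most like Lpcat3, a phospholipid-remodelling enzyme gene (rho 0.894 over 27), Cd2ap and the zinc transporter gene Slc39a8. Grhl3 was most like the immediate early gene Ier2 (rho 0.808, and 0.729 in 24), Wfdc2 and Lmntd2. Ovol1 was most like Ttc22 (rho 0.891, and 0.840 in 23), Ripk4, a kinase of epidermal differentiation, and Klc3. Ovol2 was most like Krt88 (rho 0.860, and 0.815 in 20), Smarcd2 and Frem2, and Klf5 was most like Serinc2 (rho 0.899 over 27), St6galnac2 and Vill. Cdh1 and Krt19 were in the top 3 of both Ehf and Esrp1, and no other gene was in the top 3 of more than 1 regulator.

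The 10 genes lie on chromosomes 1 (Elf3), 2 (Ehf and Ovol2), 4 (Esrp1 and Grhl3), 8 (Esrp2), 12 (Grhl1), 14 (Klf5), 15 (Grhl2) and 19 (Ovol1).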

How the data were processed

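Total RNA of 27 snap-frozen tumours had been hybridised to 1 array each. The authors deposited log2 expression values (41345 rows, 1.68 to 14.5), and the submitters' processing notes name Partek; the version, the background correction, the normalization and the build of the array design were not given in the sources used here. Values were used as deposited. Arrays hold no read depth, so the number of arrays limits the precision, and nothing states that tumours were handled in batches.

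Of the rows, 23521 had 1 gene symbol, 1814 several and 16010 none; for the 1082 genes with more than 1 row only the highest on average entered, and 22180 genes resulted. The 10 genes, the gene lists and the tests were chosen with earlier results of these data known. A list's score is the mean of its measured genes' centred log2 levels. Clusters were called with mclust 6.1.1. Genes were fitted on a regulator's level, or on a score without that list's own genes, with limma 3.58.1 (lmFit, eBayes with a trend) in R 4.3.3, at an adjusted p of 0.05 (Benjamini-Hochberg over all genes). Scores that fell into clusters were fitted in the larger one. Both steps were tested on simulated data.

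The text names all 10 genes, up to 4 of the steepest genes of each list it discusses, and 3 genes most like each regulator; Dsp, Azgp1, Stmn2 and Fgfr2 in the fits along Esrp1 or Ehf, and genes named for their level in single tumours, were chosen after their values were seen. Some genes of the lists are not reported here. Alternatives covered normalization, filters, covariates, clusters and leaving tumours out.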

Additional observations from a re-analysis of the deposited data

How the results depend on the processing

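No paired analysis was possible because there is 1 group and 1 array per tumour. The count of regulators with separate clusters was 8 under each other normalization, row choice and clustering threshold run, and 7 to 8 with 1 tumour left out (7 without P966, P471 or P1276, when Grhl3 lost its clusters). Of 90 ordered pairs 31 passed, and the count was 28 to 32 with other normalizations, filters, covariates or tumours left out, except with all 27 tumours in every fit, where it was 86, and 28 without P502. Leaving out 1 tumour at a time gave 28 to 34. Along the mitosis score the count was 8, 7 to 9 in other settings and with 1 tumour left out, and 0 in the larger luminal cluster. Along the androgen-responsive and secretory score the count was 5, and it was 0 without P425, P219 and P268, 0 in the larger luminal cluster, 8 with the animal number and 2 with composition scores as covariates, and 2 to 6 with 1 tumour left out. Along the fibroblast and matrix score the count was 3, and it was 0 with composition scores as covariates, 0 in the larger luminal cluster and 0 to 7 with 1 tumour left out. Along the neuroendocrine score 10 fell over all 27 tumours, against 0 in 23; along the mesenchymal transition score the count was 0 in every setting run.

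Fits added after the data were seen used the 19 tumours of lower Esrp1 level, with and without P502. Fits along a regulator with clusters also stayed within its larger cluster. There 5 pairs passed, and those along Esrp1 and Esrp2 come from the same tumours as in the fits as designed. Along mitosis 0 regulators passed (0 without P502), along the androgen-responsive score 2 (0 without P502) and along the fibroblast score 0 (0 without P502). Slopes that had passed and changed sign there were those of Ovol1 (-0.31) and Ovol2 (-0.09) along Grhl1, of Grhl1 (-0.43) and Grhl2 (-0.31) along Ovol1, of Ovol2 along Klf5 (-0.04), and, along mitosis, of Grhl1 (0.12), Grhl2 (0.42), Elf3 (0.03), Ehf (0.06) and Esrp1 (0.02). Of slopes that had not passed, that of Klf5 along mitosis was then 0.30, and those of Ovol2 along the androgen-responsive and fibroblast scores were -0.02 and -0.04. Without P502, as in the larger luminal cluster, the mitosis slopes of Grhl1 and Grhl2 were 0.11 and 0.38. Fewer tumours enter these fits, and the cause of the changes was not tested. Quantile normalization moved an array's median by at most 0.15 log2. Levels below 5.79 are near background, which limits the lower end of all ranges but that of Klf5.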
